A study of Mus musculus with 6 samples.

Results

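The region examined was mouse chromosome 6, taken as every interval of open chromatin that the deposited count table places on that chromosome. It held 3221 of the 52223 intervals of the table, and 3177 of these passed a filter on low counts and were tested. The chromosome had been chosen by the fall of its own intervals in Nr6a1OE libraries compared with mScarlet libraries, so its share of fragments, its median change and its bins are given below as a description with no test. The questions asked of it were whether the whole chromosome fell by a like amount along its length, in every library and in every kind of interval, or whether single intervals accounted for the fall.

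Chromatin accessibility was measured by ATAC-seq, which uses a transposase, Tn5, to cut and tag DNA wherever chromatin is open, in neural progenitors differentiated from mouse embryonic stem (ES) cells. The 3 Nr6a1OE libraries came from cells given a lentivirus that carries Nr6a1-2A-mScarlet3, which adds Nr6a1 and a red fluorescent protein from 1 transcript, and the 3 mScarlet libraries from cells given a lentivirus with mScarlet3 only. Cells of both groups were treated with the GSK3 inhibitor CHIR99021 (5 µM) on day 2, then with retinoic acid (RA, 100 nM) plus the Smoothened agonist SAG (10 nM) from day 3, and SAG alone (10 nM) from day 5. Cells were transduced on day 5, and on day 9 a sort for mScarlet3 fluorescence gave 50000 cells for each library. The sources used here do not give the promoter of the virus, the ES cell line or whether each library is a culture of its own, so a p-value covers the spread among these libraries alone, and that spread may be technical.

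Nr6a1 belongs to the nuclear receptors, has no known ligand and goes by the older name germ cell nuclear factor. It shuts off pluripotency genes when embryonic cells leave that state, and it binds DNA at a direct repeat of AGGTCA with no gap between the copies (DR0). Mouse chromosome 6 carries the HoxA cluster, whose genes give cells of the trunk their position along the body axis, and the pluripotency gene Nanog. It also carries genes of neural progenitor signalling such as Ptn, Ptprz1 and Wnt7a. The number of ATAC-seq fragments from a chromosome depends both on how open each copy is and on how many copies each cell holds, and fewer copies and less open chromatin cannot be told apart in these counts.

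Each library held 6857763 to 8030029 fragments in intervals. Of the 8 neural progenitor genes Sox2, Sox1, Sox3, Pax6, Nes, Olig2, Nkx6-1 and Msi1, all 8 had an interval within 1 kb of a gene end, at means of 12.8 to 132 CPM (counts scaled to the library size) in Nr6a1OE and 12.3 to 134 CPM in mScarlet, and all 5 neuron genes had one too. Intervals were found at 1 of 4 genes of pluripotent cells (Nanog, 3.38 CPM in Nr6a1OE and 2.71 CPM in mScarlet, with none at Pou5f1, Zfp42 or Dppa3), 3 of 8 genes of endothelium and blood, 2 of 3 of endoderm and 2 of 2 of muscle. Means at the endothelium and blood genes were 33.0 to 41.8 CPM in Nr6a1OE and 36.7 to 45.4 CPM in mScarlet. Those at the endoderm genes were 36.7 to 39.4 CPM and 36.9 to 38.1 CPM. Both sets lay within the range of the neural progenitor genes. The muscle genes had 1.30 to 15.7 CPM in Nr6a1OE and 1.65 to 14.99 CPM in mScarlet. Of all the intervals at these marker genes, edgeR called 0 between the groups and 1, at Gata2, had an unadjusted p under 0.05. Gata2, Cd4 and Kdr, the 3 endothelium and blood genes with an interval, were all lower in Nr6a1OE. Their log2 fold changes were -0.16, -0.12 and -0.073. The part of cell composition in the results below was not tested.

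Chromosome 6 made up a smaller share of the fragments in every Nr6a1OE library than in any mScarlet library. The shares were 5.97%, 5.90% and 5.93% in Nr6a1OE 1 to 3, and 6.08%, 6.10% and 6.08% in mScarlet 1 to 3. The exact 95% binomial intervals, which cover counting error only, ran from 5.88% to 5.99% over the Nr6a1OE libraries and from 6.06% to 6.12% over the mScarlet libraries, so the groups did not overlap. The means were 5.93% ± 0.0356 in Nr6a1OE and 6.09% ± 0.0103 in mScarlet (SD, n = 3 each), a difference of -0.156 percentage points or -2.56% of the mScarlet share.

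Chromosome 11 moved the other way, with 9.39% ± 0.0266 of the fragments in Nr6a1OE and 9.06% ± 0.0210 in mScarlet (SD, n = 3 each). A gain on 1 chromosome lowers every other share, so the shares were also taken over the fragments outside chromosome 11. Chromosome 6 then held 6.55% ± 0.0374 in Nr6a1OE and 6.69% ± 0.00978 in mScarlet (SD, n = 3 each), a difference of -2.20% of the mScarlet share. On the 18 chromosomes other than 6, 11 and Y, the log2 ratio of the mean shares lay between -0.0139 and 0.0068, against -0.037 on chromosome 6. In 6 of those 18, too, every Nr6a1OE share lay below every mScarlet share, so a lack of overlap alone does not set chromosome 6 apart, and the size of the difference is what separates it.

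The same order held for single intervals. The median log2 fold change of Nr6a1OE over mScarlet was -0.031 over the 3177 tested intervals of chromosome 6, and 57.6% of them lay below 0. The corresponding values were -0.00013 and 50.0% over the 44384 tested intervals outside chromosomes 6 and 11, where the medians of the 18 chromosomes ranged from -0.0140 to 0.0126. Chromosome 6 had the lowest median of the chromosomes other than Y, and chromosome 11 the highest (0.058). Among the 3113 chromosome 6 intervals that were not called by the test given below, the median was -0.028 with 56.8% below 0, so the shift was also present in intervals with no call of their own.

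The whole distribution of fold changes lay lower on chromosome 6, and more so below its median than above it. The chromosome 6 percentile minus the same percentile on the chromosomes other than 6 and 11 was -0.055 at the 5th, -0.046 at the 25th, -0.031 at the 50th, -0.020 at the 75th and -0.030 at the 95th percentile on the log2 scale.

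**Figure D1:**
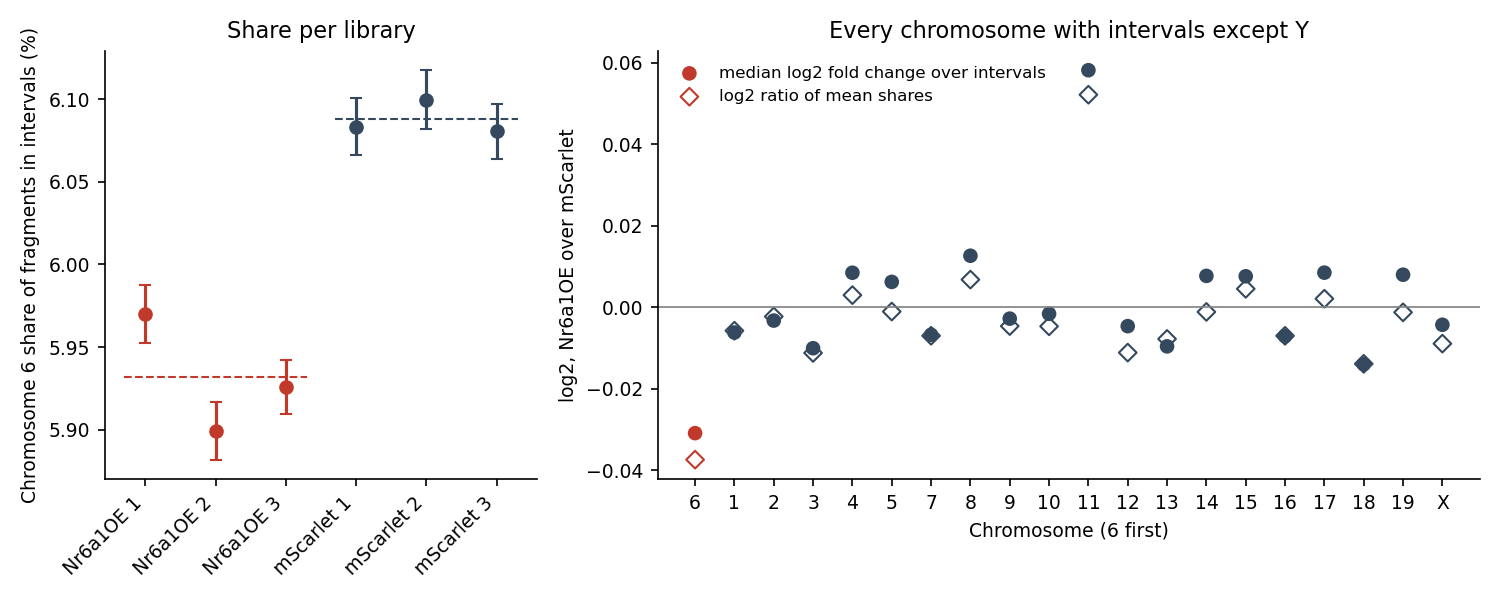
Left, chromosome 6 share of the fragments in intervals (%, axis not from 0) in each library, with exact 95% binomial intervals and dashed group means: 5.93% in Nr6a1OE and 6.09% in mScarlet. Right, the median log2 fold change over tested intervals (filled circles) and the log2 ratio of mean shares (open diamonds) for each chromosome except Y, with chromosome 6 in red at -0.031 and -0.037 and chromosome 11 at 0.058 and 0.052.

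Libraries of 1 group differed on chromosome 6 as well. The median log2 ratio to the mean of all 6 libraries was -0.0015, -0.019 and -0.018 in Nr6a1OE 1 to 3 and 0.021, 0.028 and 0.021 in mScarlet 1 to 3. Nr6a1OE 1 therefore lay closest to the mScarlet libraries. Set against the other 2 libraries of its own group, a comparison that does not use the contrast between groups, its chromosome 6 median was 0.0258 higher, while its medians on the other chromosomes lay between -0.0045 and 0.018. Its chromosome 11 share was also the least raised of the group, at 9.37% against 9.42% and 9.40% in Nr6a1OE 2 and 3, with 9.07%, 9.04% and 9.08% in mScarlet 1 to 3. Each of the remaining 5 libraries differed from the others of its group on chromosome 6 by a value within its range on the other chromosomes.

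Along the chromosome, the fall was spread over its whole length. The intervals were put into 30 bins of 5 Mb by their start, with 25 to 224 tested intervals each. The summed CPM was lower in the Nr6a1OE mean in 30 of 30 bins, by log2 ratios of -0.091 to -0.018 with a median of -0.050. Each of Nr6a1OE 1, 2 and 3 lay below the mScarlet mean in 30 of 30 bins, with median log2 ratios of -0.037, -0.058 and -0.051. Nr6a1OE 1 was the highest of the 3 in 20 of the 30 bins. Set against the mean of the other 2 mScarlet libraries, mScarlet 1, 2 and 3 lay below it in 9, 16 and 21 of the 30 bins, with median log2 ratios of 0.0024, -0.00092 and -0.0037.

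Every Nr6a1OE sum lay below every mScarlet sum in 26 of the 30 bins, against 28.9% of the bins of the whole table and 114 of 429 bins outside chromosomes 6 and 11. The groups overlapped in the bins at 45 to 50, 80 to 85, 120 to 125 and 140 to 145 Mb. Lower sums were common elsewhere too: 75.3% of the bins outside chromosomes 6 and 11 had a lower sum in Nr6a1OE, but with a median log2 ratio of -0.0127, and the bins of chromosome 19 were lower in 13 of 13. Chromosome 6 thus differed by the size of the shift and the lack of overlap more than by its direction.

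**Figure D2:**
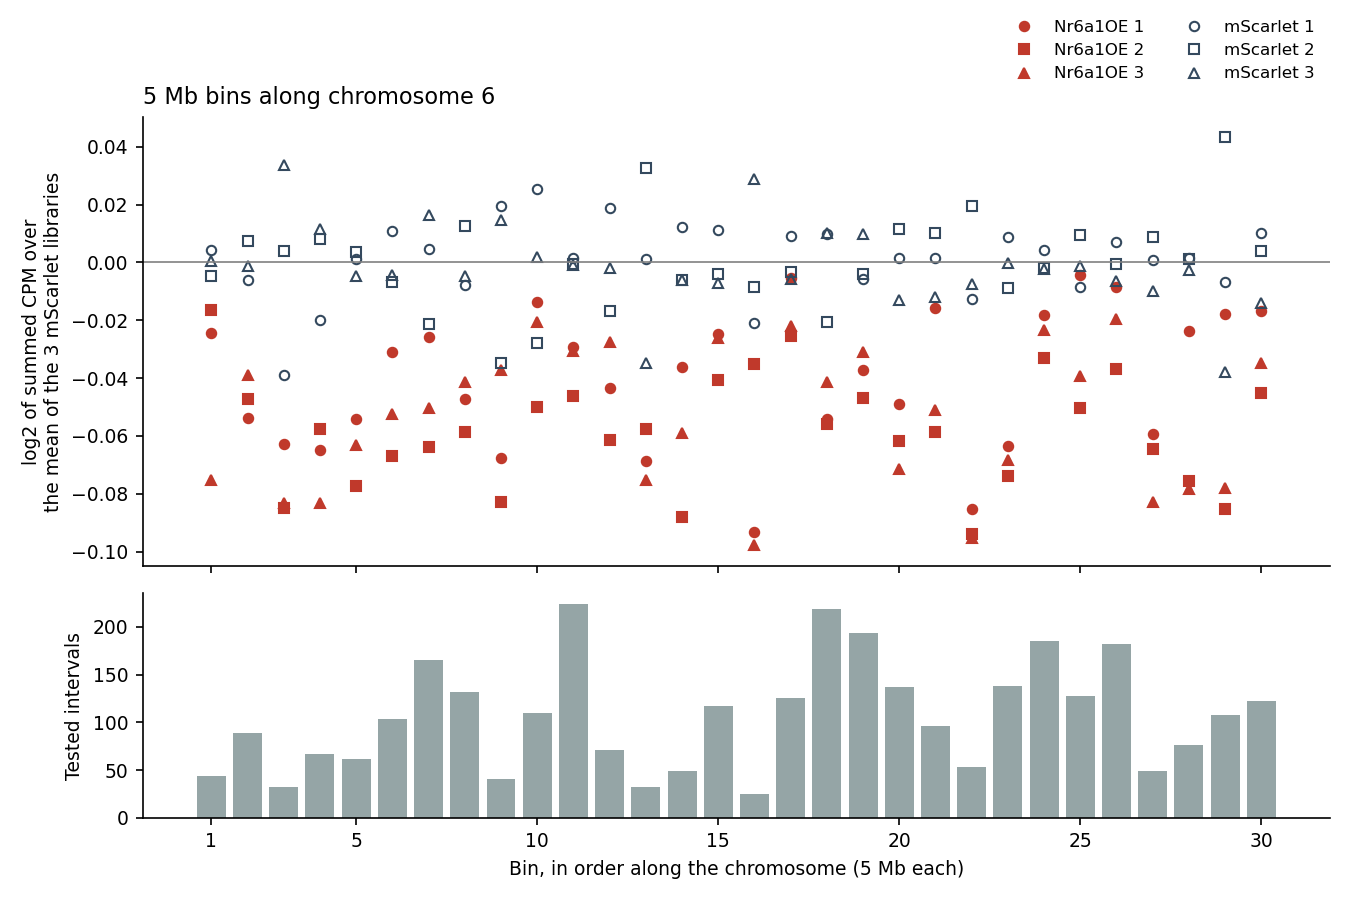
Upper panel, log2 of the summed CPM of each library over the mean of the 3 mScarlet libraries, for 30 bins of 5 Mb in order along chromosome 6 (Nr6a1OE red and filled, mScarlet dark and open). Lower panel, tested intervals per bin. Every Nr6a1OE point lies below 0, with library medians of -0.037, -0.058 and -0.051, and no stretch of the chromosome carries the fall alone.

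The spread of the fall between bins lay within the range seen on other chromosomes. The SD over bins of the log2 sums was 0.0184 on chromosome 6, against 0.0072 to 0.044 with a median of 0.0236 on the other 18 chromosomes, and the SD of the bin medians was 0.0270, against 0.0174 to 0.0515. The largest fall of a sum was in the bin at 105 to 110 Mb, with 896, 891 and 890 summed CPM in Nr6a1OE 1 to 3 and 943, 964 and 946 in mScarlet 1 to 3. The smallest was at 80 to 85 Mb, with 3043, 3001 and 3009 summed CPM in Nr6a1OE and 3074, 3047 and 3043 in mScarlet, where Nr6a1OE 1 lay level with mScarlet 3. Bins with few intervals fell further than crowded ones: the median log2 ratio was -0.068 in the 8 bins with 20 to 59 intervals, -0.048 in the 10 bins with 60 to 119 and -0.037 in the 12 bins with 120 or more. Outside chromosomes 6 and 11 the same classes had -0.021, -0.017 and -0.0054, so the order was shared and the chromosome 6 values were lower in each class.

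In medians of single intervals, 28 of 30 bins lay below 0. The lowest was the bin at 75 to 80 Mb, a sparse stretch around Ctnna2, which encodes a neuronal catenin, with 25 intervals and a median log2 fold change of -0.105. Its summed CPM was 309, 322 and 308 in Nr6a1OE 1 to 3 and 325, 328 and 336 in mScarlet 1 to 3, without overlap, and 0 of its intervals were called by edgeR. Its extremes were both near Ctnna2, an interval at chr6:76659051-76659519 with a log2 fold change of -0.92 ± 0.326 (SE, adjusted p = 0.137) and an interval at chr6:77633935-77634308 inside the gene with 0.26 ± 0.271 (adjusted p = 0.758). The highest bin median, 0.003, was at 45 to 50 Mb, around Cntnap2, a neuronal adhesion gene. Its extremes were an interval inside Cntnap2 with -0.74 ± 0.236 (adjusted p = 0.0735) and an interval 7.16 kb from Atp6v0e2 with 0.65 ± 0.243 (adjusted p = 0.166).

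The shift was also present in every class by length, by strength and by distance to a gene end, each taken singly. Of 12 classes by length, strength and distance to a gene end, chromosome 6 took a lower mean share of the class in Nr6a1OE in 12, by log2 ratios of -0.051 to -0.022, and the groups did not overlap in 10. The exceptions were the weaker 2 quartiles of strength, where each library holds few fragments per interval. By length, the chromosome 6 medians were -0.054, -0.033, -0.026 and -0.026 in the quartiles from short to long, against -0.018, -0.0013, -0.0050 and 0.0088 on the chromosomes other than 6 and 11. The gap between chromosome 6 and the rest was therefore much alike in short and long intervals, while the level of both moved with length.

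By strength, the mean CPM over all 6 libraries, the chromosome 6 medians were -0.016, -0.0085, -0.029 and -0.043 in the quartiles from weak to strong, against 0.0086, 0.0094, 0.011 and -0.012 elsewhere. Among the strongest quartile, which measures each interval best, 73.1% of the chromosome 6 intervals lay below 0, against 56.9% elsewhere. In the weakest quartile of strength, at 1.02 to 3.61 CPM, all but the shortest intervals were an exception. The chromosome 6 medians there were 0.034 in the second length quartile (241 intervals), 0.085 in the third (87) and 0.17 in the fourth (14). Elsewhere the medians were 0.037, 0.085 and 0.16, and the shares of the groups overlapped in each of these classes. The 503 shortest weak intervals had a median of -0.055, against -0.020 elsewhere.

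By distance to the nearest gene end, the chromosome 6 medians were -0.028 within 1 kb, -0.026 at 1 to 10 kb, -0.023 at 10 to 100 kb and -0.071 beyond 100 kb, against -0.0046, 0.021, 0.0078 and -0.035 elsewhere. Intervals far from genes thus had the lowest medians on chromosome 6 and elsewhere alike. A promoter window, 250 bases before to 50 after a gene's start in RefSeq, was overlapped by 652 tested chromosome 6 intervals, with 67.6% below 0 against 53.9% elsewhere. Over promoters of low, middle and high GC content, the chromosome 6 medians were -0.043, -0.030 and -0.030, against -0.0046, -0.0080 and -0.0087, so GC-rich and GC-poor promoters both lay lower.

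**Figure D3:**
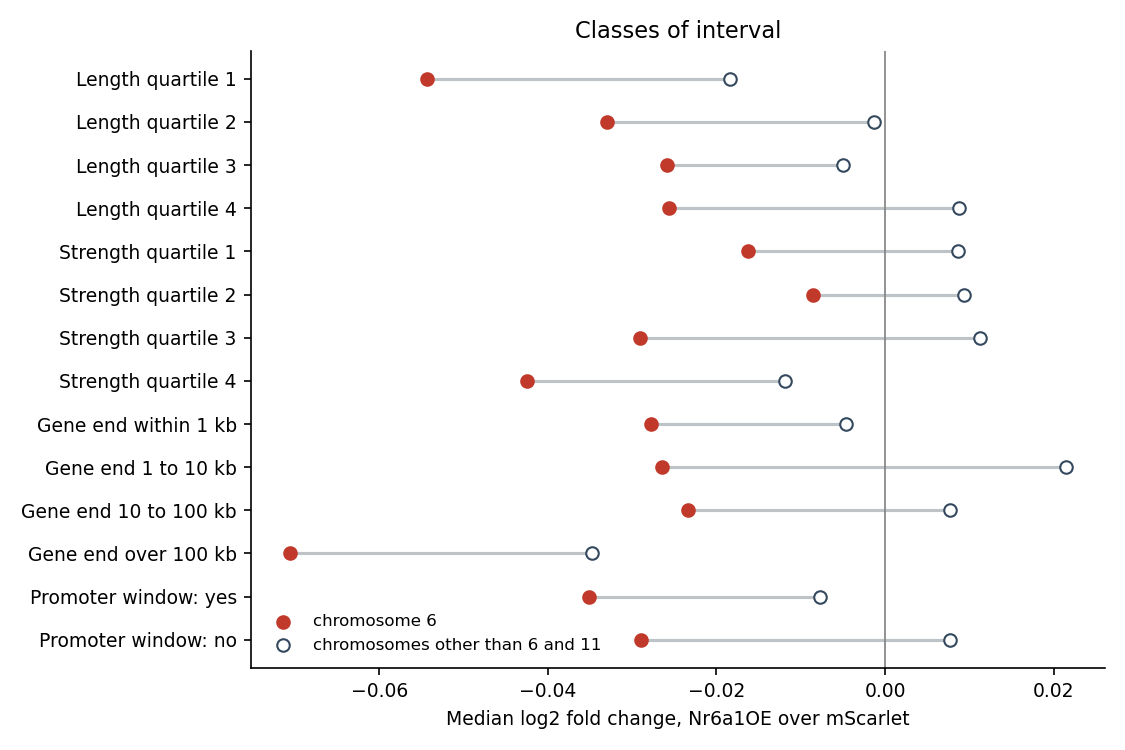
Median log2 fold change of Nr6a1OE over mScarlet in classes of interval, for chromosome 6 (red) and for the chromosomes other than 6 and 11 (open). Quartile 1 is the shortest or weakest, and a gene end is the nearer end of the nearest gene. The chromosome 6 median lies left of the other in each class shown, from -0.071 beyond 100 kb of a gene end to -0.0085 in the second strength quartile.

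In the test of single intervals, edgeR's quasi-likelihood test with Benjamini-Hochberg adjustment over all 51637 tested intervals, an interval past an adjusted p of 0.05 is called closed where it was lower in Nr6a1OE and opened where it was higher. On chromosome 6, 62 of 3177 intervals (1.95%) were closed and 2 (0.063%) were opened, beside 1.26% closed and 0.469% opened in the whole table. At an unadjusted p under 0.05, 366 were lower and 118 higher. Without regard to a test, every Nr6a1OE library lay below every mScarlet library in 412 chromosome 6 intervals (13.0%) and above in 160 (5.04%), beside 8.73% and 7.89% in the whole table. DESeq2 called 10 of the 62 closed intervals and no other on chromosome 6. In the whole table it called 0.212% closed of the 46631 intervals to which it gave an adjusted p. It gave none to 5006 tested intervals, some of the 62 among them, and their number on chromosome 6 was not taken. On chromosome 6 it called 0 opened, with 141 lower and 30 higher at an unadjusted p under 0.05. For the counts at an unadjusted p and for opened calls of DESeq2, no share of the whole table was taken. Those counts were therefore not compared with the table, and neither an excess nor a lack of one is read from them.

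To set a change shared by the chromosome apart from changes of single intervals, each library's median on each chromosome was taken out of the fit, which raised the log2 fold change of chromosome 6 intervals by a median of 0.036 and left their median at 0.0054. Then 45 intervals (1.42%) were closed and 11 (0.346%) opened on chromosome 6, beside 1.21% and 0.424% in the whole table. All 45 were among the 62, so 17 calls were lost and 0 gained, and both opened intervals remained while 9 were gained. The groups did not overlap in 287 intervals that were lower (9.03%) and 235 that were higher (7.40%), beside 8.53% and 7.73% in the whole table. With the shift removed, the chromosome 6 shares were thus near those of the table. The chromosome was chosen by the shift that was taken out, so this nearness follows in part from the removal itself.

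The 17 calls lost with the shift and the 45 kept differed in kind. The lost calls changed by a median of -0.22 on the log2 scale and had a median strength of 52.2 CPM, and 10 of the 17 overlapped a promoter window. The kept calls had a median of -0.60 and 10.1 CPM, 1 of the 45 overlapped a promoter window, 22 lay inside a gene and 11 lay over 100 kb from a gene end. Of all 3177 tested chromosome 6 intervals, 652 overlapped a promoter window and 475 lay over 100 kb from a gene end. The share of all intervals that lay inside a gene was not taken, so the 22 are not read as many or few. A small change can pass the test only where counts are high, so strength and size are linked here by the test itself.

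Of the 17 lost calls, 10 were at promoters, and 3 of these are given in full. Txnrd3, which encodes a thioredoxin reductase, had 104, 103 and 109 CPM in Nr6a1OE 1 to 3 and 119, 113 and 125 CPM in mScarlet 1 to 3 in the interval at its start (chr6:89643717-89644919). The log2 fold change was -0.18 ± 0.0435 (SE, edgeR adjusted p = 0.00612), and -0.14 with an adjusted p of 0.0606 with chromosome medians removed. Strip2, which encodes a subunit of the STRIPAK phosphatase complex, had 73.6, 76.7 and 71.7 CPM in Nr6a1OE and 86.0, 77.1 and 88.1 CPM in mScarlet, with an adjusted p of 0.0259 before and 0.125 after. The shared start of Wbp11, a splicing factor, and BC049715 had 65.1, 60.2 and 63.3 CPM in Nr6a1OE and 68.9, 72.9 and 75.8 CPM in mScarlet, with an adjusted p of 0.0161 before and 0.0815 after. In all 3 the groups did not overlap, but each call was also lost when single libraries were left out, in 3, 4 and 3 of 6 such fits, and DESeq2 called none of them (adjusted p = 0.436, 0.828 and 0.627).

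The other calls at promoters that were lost with chromosome medians removed were at Creld1, Rnf181, Add2, Zfp282, Eif2ak3, Slc25a18 and C530044C16Rik, at log2 fold changes of -0.34 (Slc25a18, a mitochondrial glutamate carrier) to -0.15 (Eif2ak3, the kinase PERK of the unfolded protein response). The 1 promoter call that was kept lay in an interval that overlaps an end of Bhlhe40, which encodes a transcriptional repressor of the circadian clock, and holds the promoter window of 0610040F04Rik. It had 94.2, 83.6 and 83.4 CPM in Nr6a1OE 1 to 3 and 101, 107 and 100 CPM in mScarlet 1 to 3, a log2 fold change of -0.24 ± 0.0470 with an edgeR adjusted p of 9.75e-05, and 0.00211 with chromosome medians removed. The promoters overlapped by closed intervals were chosen by the same contrast, so the values above are a description.

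The promoters of Txnrd3, Strip2 and Wbp11 are shown because their calls were lost with the shift, and those of Ptn and Kcnj8 because their intervals passed the test only once the shift was removed. Each line gives the 250 bases before the start of the gene, 5′ to 3′ on the gene's strand, from RefSeq's GRCm38.p6 (mm10), with every CpG in capitals. The windows are chr6:89643738-89643987 (plus strand), chr6:29916763-29917012 (plus strand), chr6:136828217-136828466 (minus strand), chr6:36810180-36810429 (minus strand) and chr6:142571615-142571864 (minus strand).
Txnrd3: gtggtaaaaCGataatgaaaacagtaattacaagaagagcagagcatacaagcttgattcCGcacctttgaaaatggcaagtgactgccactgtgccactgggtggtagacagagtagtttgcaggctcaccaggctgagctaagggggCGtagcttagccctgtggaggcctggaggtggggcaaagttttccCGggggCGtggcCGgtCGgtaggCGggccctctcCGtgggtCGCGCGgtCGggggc
Strip2: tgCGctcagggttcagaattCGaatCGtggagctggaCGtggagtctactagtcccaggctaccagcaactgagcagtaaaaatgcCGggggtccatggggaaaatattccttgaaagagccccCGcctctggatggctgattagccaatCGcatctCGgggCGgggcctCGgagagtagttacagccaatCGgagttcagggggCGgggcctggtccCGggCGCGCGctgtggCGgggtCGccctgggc
Wbp11: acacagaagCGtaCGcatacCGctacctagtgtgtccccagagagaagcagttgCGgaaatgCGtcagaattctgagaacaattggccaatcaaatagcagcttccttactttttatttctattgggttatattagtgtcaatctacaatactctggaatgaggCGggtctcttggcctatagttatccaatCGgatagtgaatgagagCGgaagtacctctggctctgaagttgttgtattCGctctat
Ptn: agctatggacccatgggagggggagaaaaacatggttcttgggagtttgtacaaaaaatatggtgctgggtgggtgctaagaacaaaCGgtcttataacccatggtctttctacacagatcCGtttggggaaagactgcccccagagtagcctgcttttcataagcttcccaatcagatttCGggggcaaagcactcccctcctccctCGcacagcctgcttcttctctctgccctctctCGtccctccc
Kcnj8: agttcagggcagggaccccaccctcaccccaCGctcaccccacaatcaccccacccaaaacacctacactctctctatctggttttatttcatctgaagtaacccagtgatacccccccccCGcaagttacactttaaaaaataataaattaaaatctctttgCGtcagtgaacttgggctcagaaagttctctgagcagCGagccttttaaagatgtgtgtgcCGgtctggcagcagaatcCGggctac
The Txnrd3, Strip2 and Wbp11 stretches held 13, 18 and 9 CpGs at 58%, 62% and 43.6% GC, and the Ptn and Kcnj8 stretches held 5 and 6 CpGs at 52% and 49.2% GC.

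DR0 was searched on both strands as AGGTCA repeated with no gap, and an extended single site as TCAAGGTCA. Every DR0 written this way contains the whole extended single site, so a window with DR0 counts for both. DR0 was present in 2 of 32851 promoter windows of the genome and 0 of 1865 on chromosome 6, and the extended single site in 0.423% and 0.322%. Neither was found in the 12 promoter windows overlapped by closed intervals or in the 2 overlapped by intervals opened with chromosome medians removed. These letters were sought only in promoter windows, since no genome was used for the intervals themselves.

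Among the closed intervals, 8 had a log2 fold change of -1 or lower, and the 10 lowest at 2 CPM or more without overlap of the groups are named here by their nearest gene, which is a label of position and not a target. Their large changes and lack of overlap were set by this choice. They lay 3.32 to 322 kb from a gene end, and all 10 were closed with and without the chromosome shift. The lowest was 11.4 kb from Frmd4b, which encodes a FERM-domain scaffold protein, at chr6:97629092-97629908. It had 1.70, 1.84 and 2.40 CPM in Nr6a1OE 1 to 3 and 5.48, 4.23 and 5.37 CPM in mScarlet 1 to 3, or -1.33 ± 0.251 on the log2 scale (SE, edgeR adjusted p = 5.22e-05). The call held in each of the 6 fits without 1 library and in DESeq2 (adjusted p = 0.0499).

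The interval 17.4 kb from Ybx3, which encodes a cold-shock domain protein that binds DNA and RNA, at chr6:131405840-131406677 had 2.13, 2.12 and 1.39 CPM in Nr6a1OE and 4.11, 5.39 and 4.62 CPM in mScarlet (log2 fold change -1.33 ± 0.261, edgeR adjusted p = 0.000137). The interval 3.32 kb from Cav2, a caveolin of membrane invaginations, at chr6:17292452-17293856 had 3.55, 4.24 and 4.29 CPM in Nr6a1OE and 8.35, 12.2 and 9.74 CPM in mScarlet (-1.31 ± 0.174, edgeR adjusted p = 7.07e-11). An interval 322 kb from the nearest gene, Tmem229a, at chr6:25277864-25278972 had 4.12, 3.11 and 3.15 CPM in Nr6a1OE and 6.30, 7.29 and 7.99 CPM in mScarlet (-1.06 ± 0.198, edgeR adjusted p = 3.89e-05). In each of the 3, the edgeR call held without any 1 library. DESeq2 called the Cav2 interval (adjusted p = 0.000153) but not those nearest to Ybx3 and Tmem229a (0.0766 and 0.0532).

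The interval 44.4 kb from Akr1b3, which encodes aldose reductase, at chr6:34258279-34259521 had 4.26, 4.10 and 4.29 CPM in Nr6a1OE and 9.45, 7.43 and 8.87 CPM in mScarlet (-1.03 ± 0.179, edgeR adjusted p = 5.66e-06, DESeq2 0.0206). An interval inside Snd1, whose product takes part in RNA regulation, has its nearest gene end at Lrrc4, a synaptic adhesion gene, and had 3.13, 2.26 and 1.14 CPM in Nr6a1OE and 4.52, 3.64 and 4.87 CPM in mScarlet (-1.03 ± 0.258, edgeR adjusted p = 0.00852). The call inside Snd1 was lost without Nr6a1OE 3, mScarlet 1 or mScarlet 3, with adjusted p up to 0.249. Nr6a1OE 3 was the lowest library there, and DESeq2 gave an adjusted p of 0.571.

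The strongest of the 10, inside Pdzrn3, which encodes a ubiquitin ligase with PDZ and RING domains, lay at chr6:101283793-101285069. It had 15.1, 14.8 and 18.4 CPM in Nr6a1OE 1 to 3 and 33.0, 24.8 and 30.7 CPM in mScarlet 1 to 3, a log2 fold change of -0.87 ± 0.0954 (edgeR adjusted p = 4.14e-16, DESeq2 2.43e-06). The call held without any 1 library. Intervals 28.3 kb from Parp11, a mono-ADP-ribosyltransferase, and inside Jazf1, a zinc finger gene, had log2 fold changes of -0.89 ± 0.204 and -0.88 ± 0.238 (edgeR adjusted p = 0.00243 and 0.0196). The Parp11 call was lost without mScarlet 3 (adjusted p = 0.0721), and the Jazf1 call held only without mScarlet 1. DESeq2 called neither (adjusted p = 0.296 and 0.643).

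**Figure D4:**
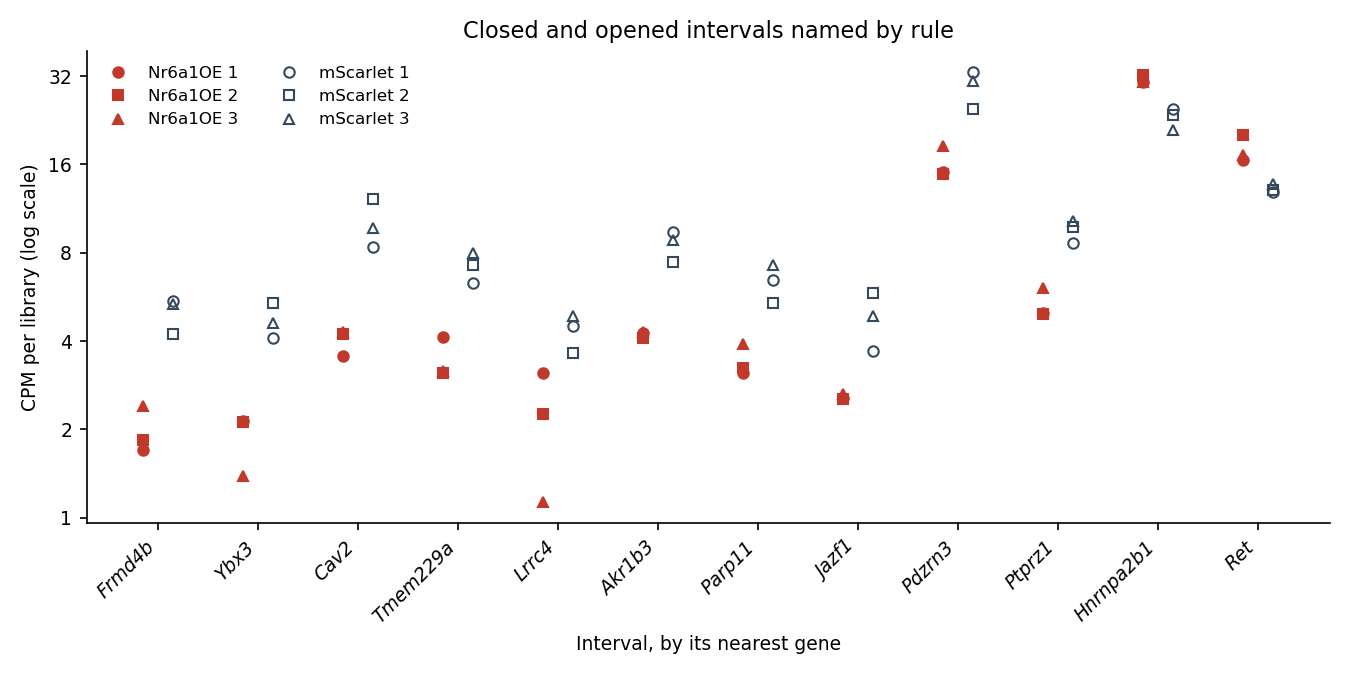
CPM in each library (log scale) for 10 closed intervals and the 2 opened intervals, by nearest gene. The 10 have the lowest log2 fold changes among closed intervals at 2 CPM or more without overlap of the groups. Nr6a1OE libraries are red and filled, mScarlet libraries dark and open. Lack of overlap was a condition of the choice. The closed intervals have log2 fold changes of -1.33 (Frmd4b) to -0.83 (Ptprz1), low by choice, against a chromosome median of -0.031.

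Closed intervals lay along most of the chromosome. They were in 26 of the 30 bins with at most 5 in a bin, and 10 of the 62 had another closed interval within 100 kb. The same counts were not taken for intervals in general, so whether closed ones cluster was not tested. The 453 intervals within 100 kb of a closed one that were not closed themselves had a median log2 fold change of -0.026 with 57.8% below 0, against -0.028 and 56.8% for all uncalled intervals of the chromosome, a difference that was not tested. Around single ones the neighbours differed, with a median of -0.18 over 5 intervals near the Ptprz1 interval and 0.12 over 11 near the Jazf1 interval.

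Only 2 intervals were opened. One overlapped an end of Hnrnpa2b1, which encodes an RNA-binding protein of the nucleus, at chr6:51459022-51460788, with 30.5, 32.4 and 30.5 CPM in Nr6a1OE 1 to 3 and 24.6, 23.6 and 21.0 CPM in mScarlet 1 to 3. Its log2 fold change was 0.44 ± 0.0861 (SE, edgeR adjusted p = 0.000145), and the call held without any 1 library, while DESeq2 gave an adjusted p of 0.0874. The other lay 65.9 kb from Ret, the receptor of the GDNF family of neurotrophic factors, at chr6:118263639-118264962, with 16.6, 20.2 and 17.3 CPM in Nr6a1OE and 12.9, 13.1 and 13.7 CPM in mScarlet. Its log2 fold change was 0.44 ± 0.113 (edgeR adjusted p = 0.0113), and the call was lost without Nr6a1OE 2 or mScarlet 1, with adjusted p up to 0.164, and DESeq2 gave 0.526.

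With chromosome medians removed, 9 more intervals were opened, at log2 fold changes of 0.21 to 0.53 in that fit. They lay at or nearest to Ptn, Kcnj8, Lag3, Fgd5, Shq1, Lrig1, Gpr27, Ccnd2 and Pdzrn3. Ptn, a growth factor secreted by neural progenitors, had 34.2, 35.7 and 33.9 CPM at its promoter in Nr6a1OE 1 to 3 and 26.1, 33.1 and 27.9 CPM in mScarlet 1 to 3. The groups did not overlap, and the adjusted p of edgeR was 0.0575 with the shift and 0.0192 without it. Kcnj8, a subunit of ATP-sensitive potassium channels, had 36.9, 35.7 and 37.7 CPM in Nr6a1OE and 27.7, 32.2 and 33.7 CPM in mScarlet, with adjusted p of 0.0826 and 0.0288. With chromosome medians removed, the Ptn and Kcnj8 calls were each lost in 4 of 6 fits without 1 library, with adjusted p up to 0.258 and 0.359. None of the 9 passed the test before the medians were removed. With chromosome medians removed, DESeq2 called 0 of the 9 (adjusted p = 0.782 for Ptn and 0.834 for Kcnj8), and its 1 opened call was the Hnrnpa2b1 interval.

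Calls near genes of the gene lists were few and are read against 1.95% closed and 0.063% opened on the chromosome, and 1.26% and 0.469% in the whole table. Counts in the lists at an unadjusted p under 0.05 are read against 366 lower and 118 higher of 3177 on the chromosome. Of 95 tested intervals nearest to 19 neural signalling genes and within 100 kb of them, 3 were closed and 1 was opened, with a median log2 fold change of -0.031, equal to the chromosome median. Ptprz1, a receptor tyrosine phosphatase of neural progenitors that binds pleiotrophin, the product of Ptn, had 2 of the closed intervals. The one 40.4 kb from the gene at chr6:22833641-22834942 had 4.97, 4.94 and 6.06 CPM in Nr6a1OE 1 to 3 and 8.63, 9.76 and 10.2 CPM in mScarlet 1 to 3 (-0.83 ± 0.164, edgeR adjusted p = 0.000133, DESeq2 0.0874). The one inside the gene at chr6:22909082-22910276 had 6.82, 7.49 and 6.06 CPM in Nr6a1OE and 9.86, 11.2 and 8.99 CPM in mScarlet (-0.56 ± 0.154, edgeR adjusted p = 0.0229, lost in 4 of 6 fits without 1 library, DESeq2 0.728). The third, 12.8 kb from the ligand gene Wnt7a, was weak, with 1.14, 0.989 and 1.14 CPM in Nr6a1OE and 3.01, 2.91 and 2.37 CPM in mScarlet (-1.32 ± 0.350, edgeR adjusted p = 0.0160), and its call held only without mScarlet 3.

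The HoxA cluster lay near 0, and its difference from the rest of the chromosome was not tested. Its 40 tested intervals had a median log2 fold change of 0.016, against -0.031 for the chromosome, with 2 closed, 0 opened, and 6 lower and 2 higher at an unadjusted p under 0.05 in edgeR, beside the 1.95% closed and 0.063% opened of the chromosome. A closed interval nearest to Hoxa4, inside the Hoxa3 gene model at chr6:52194451-52195128, had 21.4, 18.2 and 17.9 CPM in Nr6a1OE 1 to 3 and 30.4, 30.3 and 27.5 CPM in mScarlet 1 to 3 (-0.61 ± 0.0916, edgeR adjusted p = 1.97e-08), and held in every fit without 1 library. At the genes themselves, the intervals nearest to Hoxa2 through Hoxa13 and Evx1 had log2 fold changes of -0.12 (Hoxa11) to 0.11 (Hoxa9) with none called. The Hoxa5 interval, which also reaches Hoxa6, had 125, 122 and 121 CPM in Nr6a1OE and 119, 117 and 108 CPM in mScarlet (0.10 ± 0.0425, edgeR adjusted p = 0.241).

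Pluripotency genes held 0 called intervals of 15, with 0 lower and 1 higher at an unadjusted p under 0.05 in edgeR. The interval nearest to Nanog, 0.965 kb from the gene, was weak, with 2.56, 3.53 and 4.04 CPM in Nr6a1OE 1 to 3 and 3.29, 2.33 and 2.50 CPM in mScarlet 1 to 3. The groups overlapped, and the log2 fold change was 0.33 ± 0.260 (edgeR adjusted p = 0.653). Phc1, a Polycomb subunit gene, had 62.4, 63.4 and 66.7 CPM in Nr6a1OE and 67.9, 71.3 and 66.8 CPM in mScarlet at its start (-0.093 ± 0.0553, edgeR adjusted p = 0.500). Its groups narrowly did not overlap.

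Of 94 intervals of 14 neural transcription factor genes, 2 were closed and 0 opened, near the 1.95% and 0.063% of the chromosome, with a median of 0.0048. The interval inside Tcf7l1, which encodes a repressor of Wnt targets, at chr6:72711125-72712283 had 25.4, 23.6 and 27.3 CPM in Nr6a1OE 1 to 3 and 37.2, 40.2 and 37.6 CPM in mScarlet 1 to 3, without overlap (-0.59 ± 0.0798, edgeR adjusted p = 3.00e-10, DESeq2 0.000133). The interval 91.1 kb from Mitf, a pigment cell factor gene, had -0.38 ± 0.105 (edgeR adjusted p = 0.0229), and 0.0563 with chromosome medians removed. Its call held in 1 of 6 fits without 1 library, and DESeq2 gave an adjusted p of 0.788. Of 100 intervals of 22 synapse and adhesion genes, 2 were closed and 0 opened, again near the shares of the chromosome, with a median of -0.029. They lay inside Grin2b, an NMDA receptor subunit gene (-0.68 ± 0.137, edgeR adjusted p = 0.000255), and 11 kb from Syn2, a synapsin gene (-0.41 ± 0.103, edgeR adjusted p = 0.00975). The Grin2b call held without any 1 library, the Syn2 call was lost in 4 of 6 such fits with adjusted p up to 0.0798, and DESeq2 called neither (adjusted p = 0.132 and 0.476).

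The remaining lists held no call in the test with the shift. In edgeR, 0 of 48 intervals of chromatin regulator genes were called (5 lower and 3 higher at an unadjusted p under 0.05, median -0.043), 0 of 19 of cell cycle and replication genes (1 lower and 4 higher, median 0.041) and 0 of 4 of Igf2bp3 (1 lower and 0 higher, median 0.022). With chromosome medians removed, an interval 2.36 kb from Ccnd2, the cyclin D2 gene, was opened, but its libraries overlapped, with 22.7, 22.5 and 17.3 CPM in Nr6a1OE and 16.8, 19.5 and 14.1 CPM in mScarlet, and its adjusted p was 0.0498. The list medians ranged from -0.043 to 0.041 around the chromosome median of -0.031, with 4 to 100 intervals each.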

How the data were processed

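The authors deposited 1 table of raw fragment counts over 52223 intervals in the 6 libraries. Per the file headers, it was made with featureCounts 2.0.1 on read pairs, which let a fragment count in every interval it overlapped by at least 0.2 of its length, so neighbouring intervals are not fully independent. The build is mm10, per the submitters' processing notes. The sources used here name no aligner or peak caller and do not say how duplicates or the Tn5 cut offset were handled.

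The whole table was fitted with edgeR 4.0.16 (R 4.3.3; filterByExpr, TMM, glmQLFit and glmQLFTest, Benjamini-Hochberg adjustment, no covariate), with DESeq2 1.42.0 as an alternative. The filter removed 586 intervals, 44 of them on chromosome 6, with at most 12.5 fragments on average each. CPM values are counts scaled to the TMM-adjusted library size. In the fit with chromosome medians removed, each library's offset also held its median log2 ratio to the mean of all libraries on that chromosome. Bins and sums used Python 3.11.15 with pandas 2.3.3. The fits were tested on simulated data with a larger chromosome 6 shift than was seen here. Changes of single intervals were simulated only where counts averaged 100 fragments or more, so smaller shifts and weaker intervals were not covered. Genes came from RefSeq's GRCm38.p6 tables, and the gene table carries no strand. Within groups, every pair of libraries differed beyond counting noise when intervals averaging 10 fragments or more were compared (chi-square per degree of freedom 1.05 to 1.10), while Nr6a1OE 1 and 3 did not for those averaging 100 or more (0.999, p = 0.549), so they were also summed as an alternative.

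The members and gene lists were chosen with earlier results of these data known. Named intervals are the 10 lowest and 10 highest called ones with at least 2 CPM and no overlap of groups, in the fits with and without chromosome medians, called intervals nearest to a list gene within 100 kb, and the extremes of the lowest and the highest bin. Calls at promoters and the opened interval nearest to Pdzrn3 were named after their values were seen. Alternatives covered normalization, filters, bin placement, a replicate block, leaving out each library and 1 interval per 10 kb. The result for 1 closed interval of the HoxA list is not reported here.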

Additional observations from a re-analysis of the deposited data

How the results depend on the processing

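Of 107 alternative values of the results for the whole chromosome, 80 were counted as kept, 27 as moved and 0 reversed. A value counted as kept could still differ in size, as with 46 closed intervals in place of 62 without mScarlet 1. DESeq2 called 10 closed and 0 opened intervals in place of 62 and 2 (DESeq2 gave 141 lower and 30 higher at an unadjusted p under 0.05, and edgeR 366 and 118), and 8 and 1 in place of 45 and 11 with chromosome medians removed. Requiring a mean of at least 100 fragments left 31 closed intervals, and removing chromosome medians gave 11 opened. With bins of 10 Mb, 15 of 15 bins had a median below 0 and 15 of 15 a lower sum, with a spread of bin medians of 0.0155. Without 1 library, closed intervals numbered 34 to 53 and opened 2 to 7, and 26 to 40 and 3 to 9 with chromosome medians removed. The median log2 fold change was then -0.037 to -0.026, the difference in share -0.175 to -0.140 percentage points, bins with a median below 0 numbered 27 to 29, bins with a lower sum 30 in each, and the spread of bin medians was 0.0295 to 0.0363. The fewest closed intervals, 34, were left without Nr6a1OE 3, and the cause was not tested. Libraries that share a replicate number did not deviate together (correlations 0.032, -0.024 and -0.029), and a replicate block gave 60 closed and 2 opened intervals, changing 0 of 31 calls of single intervals, where 1 interval can count both with and without chromosome medians removed. Summing Nr6a1OE 1 and 3 gave 60 and 2. Counts of 3 libraries per group limit calls to large changes in weak intervals, and 21 of the 62 closed calls held in each fit without 1 library.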

Other observations

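Within the Nr6a1OE group, the order of the libraries on chromosome 6 was the reverse of that on chromosome 11. Nr6a1OE 1, 3 and 2 had chromosome 6 shares of 5.97%, 5.93% and 5.90% and chromosome 11 shares of 9.37%, 9.40% and 9.42%. The exact 95% intervals of the chromosome 6 shares of Nr6a1OE 1 (5.95% to 5.99%) and Nr6a1OE 2 (5.88% to 5.92%) did not overlap, while those of the 3 mScarlet libraries did. With 3 libraries no relation was tested. The 3 intervals of chromosome 6 that hold a microRNA hairpin of RefSeq, at Mir196b, Mir8112 and Mir7045, had log2 fold changes of 0.088, 0.049 and 0.078, and edgeR called none (adjusted p = 0.654, 0.757 and 0.618).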
